A study of Mus musculus with 18 samples.

Results

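The 7 genes described here encode 5 connexins (*Gja1*, *Gjb2*, *Gjb6*, *Gjc1* and *Gjd2*) and 2 pannexins (*Panx1* and *Panx2*), chosen by name out of 54838 genes in the table. They were followed through the differentiation of mouse neural stem cells into astrocytes, without and with the inflammatory cytokine TNF. Neurospheres (NSPs) were free-floating cultures grown from the ventricular zone of wild-type C57BL/6J embryos at embryonic day 14 and kept proliferating with EGF at 20 ng/ml. Differentiation was started by replacing this medium with DMEM containing 10% serum on coated plates, for 24 h, 72 h or 1 week. TNF was added at 50 ng/ml to some of the 24 h and 72 h cultures, and the 1 week cultures were untreated. Each of these 6 conditions had 3 RNA-seq libraries, and the sample titles name the cells of all conditions astrocytes, the NSPs included.

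Connexins are membrane proteins that assemble into hexameric half-channels, and a half-channel of one cell docks with that of its neighbour to form a gap junction. Ions, second messengers and metabolites pass through these junctions, and in the brain astrocytes are the cells most widely coupled by them. Pannexins form large-pore channels that do not usually dock with a neighbour and that release ATP to the outside of the cell, where purinergic receptors detect it. Among the members, *Gja1* (Cx43), *Gjb6* (Cx30) and *Gjb2* (Cx26) are the astrocyte connexins, *Gjc1* (Cx45) is found in progenitors and some neurons, and *Gjd2* (Cx36) is the main connexin of electrical synapses between neurons. *Panx1* is expressed in many cell types including neural progenitors, and *Panx2* is mostly known from the central nervous system.

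All 7 genes are annotated as protein coding on GRCm38. *Gja1* lies at chr10:56377330-56402513 on the plus strand, *Gjc1* at chr11:102799579-102819700 on the minus strand and *Gjd2* at chr2:114009601-114013619 on the minus strand. *Panx1* lies at chr9:15002128-15045478 on the minus strand and *Panx2* at chr15:89059734-89073567 on the plus strand. *Gjb2* (chr14:57098600-57104702) and *Gjb6* (chr14:57123303-57133611) are neighbours on the minus strand of chromosome 14, with 18.6 kb between them. Exons of *Gjd2* overlap a transcript of the opposite strand, A530058N18Rik, by 57 and 18 bp, and the setting of the authors' counting for strand is not given in the sources used here.

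RefSeq start-site entries on GRCm38.p6 were found for 5 of the 7 members (*Gja1*, *Gjb2*, *Gjb6*, *Gjd2* and *Panx1*). The 250 bases before the start are shown for the most abundant member and for the pair that fell together when NSPs were differentiated, each 5′ to 3′ on the strand of the gene. Capitals mark matches, on either strand, to the AP-1 motif TGANTCA and to the GC box GGGCGG.

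*Gja1* (chr10:56377050-56377299, plus strand): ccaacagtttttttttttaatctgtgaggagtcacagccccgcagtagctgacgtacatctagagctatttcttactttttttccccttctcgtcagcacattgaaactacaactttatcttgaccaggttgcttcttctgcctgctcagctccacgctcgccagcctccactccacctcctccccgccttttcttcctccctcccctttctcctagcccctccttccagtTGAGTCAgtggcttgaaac

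*Gjd2* (chr2:114013620-114013869, minus strand): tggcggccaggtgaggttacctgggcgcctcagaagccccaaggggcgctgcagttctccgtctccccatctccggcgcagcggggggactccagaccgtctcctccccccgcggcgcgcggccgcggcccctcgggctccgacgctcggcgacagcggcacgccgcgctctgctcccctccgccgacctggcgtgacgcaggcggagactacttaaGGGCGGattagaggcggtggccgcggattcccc

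*Panx1* (chr9:15045479-15045728, minus strand): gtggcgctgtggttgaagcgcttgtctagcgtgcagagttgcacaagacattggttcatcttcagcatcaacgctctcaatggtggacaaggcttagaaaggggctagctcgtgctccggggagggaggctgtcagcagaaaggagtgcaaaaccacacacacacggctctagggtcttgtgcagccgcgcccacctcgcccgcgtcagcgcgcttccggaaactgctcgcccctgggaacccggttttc

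*Gja1* held 1 AP-1 match, which begins at -19 with the start site counted as 0, and 6.75% of the 32851 promoter windows of this length held one. *Gjd2* held 1 GC box at -33, a motif found in 32.7% of the windows, and 1 match to the NF-kB consensus at -167, found in 7.25%. *Gjb2* held 2 GC boxes and 1 NF-kB match. *Gjb6* and *Panx1* held none of the 4 motifs searched, the fourth being the TATA box TATAAA (12.4% of windows, in none of the 5 members). In *Gjb2* one of the GC boxes shares bases with the NF-kB match, and no other matches overlap. These are matches of letters only.

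The libraries held between 12509693 and 22549627 counts. Levels are given as CPM, the counts of a gene scaled to the size of its library with TMM factors. Replicate 1 stood apart from its partners in 3 conditions: between this replicate and the others, 12.0 to 13.2% of tested genes differed by over 2-fold in NSPs, 10.8 to 11.1% at 24 h with TNF and 9.49 to 10.1% at 72 h with TNF. Replicates 2 and 3 of these conditions differed in 2.87 to 3.45% of genes, and replicates 1 and 3 at 72 h without TNF in 11.3%. Values that turned on these libraries are given below with all 18 libraries and without replicate 1 of every condition, a fit chosen after seeing the data. The TNF-induced gene *Nfkbia* was at 135 to 161 CPM in the 6 libraries with TNF and at most at 30.4 CPM in the other 12. The summed level of 6 TNF response genes, *Nfkbia* among them, was 238, 213 and 237 CPM at 24 h with TNF. At 72 h with TNF it was 201, 219 and 235 CPM. Of 5 tested TNF response genes, 5 rose with TNF at 24 h and 4 at 72 h. Markers of microglia (summed level at most 1.56 CPM, 5 genes) and of meningeal cells (at most 1.32 CPM, 7 genes) were close to 0 in every library, and the myelin genes *Mog* and *Mag* were at most 0.406 CPM. Of 4 endothelial markers *Pecam1*, *Cldn5* and *Cdh5* were at most 0.826 CPM in any library and *Kdr* at most 6.32 CPM. Their summed level was 5.30 to 6.75 CPM at 72 h and 0.958 to 2.57 CPM at 72 h with TNF, with 1 of 2 tested called lower. Ependymal markers rose and are given beside *Panx2*. As a check of the label astrocyte, 5 of 9 astrocyte markers rose and 1 fell from NSPs to 24 h, 4 rose and 3 fell from NSPs to 72 h (median log2 fold change -0.35), and 1 rose and 5 fell from NSPs to 1 week. *Gfap*, the astrocyte intermediate filament, was at 1850, 3170 and 2270 CPM at 72 h. At 1 week *Gfap* was at 55.9, 52.7 and 81.6 CPM and *Aldh1l1*, another astrocyte marker, at 3.22, 3.51 and 4.01 CPM, both below their 24 h levels, whereas the astrocyte glutamate transporter *Slc1a3* was at 1800 to 2260 CPM.

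Of the 7 members, 5 passed the filter on low counts and were tested. *Gjb2* had at most 13 counts in any library and *Gjb6* at most 18, so both were left out of the main tests. *Gjd2* passed only through its NSP libraries (14, 99 and 116 counts, against 0 to 4 elsewhere) and *Panx2*, with 2 to 5 counts in NSPs, only through the others, so the direction of both against NSPs was set in part by the filter and their calls there are no independent support. Compared per kilobase of exon, so that gene length does not enter, *Gja1* was the most abundant member in every condition (11.6 to 52.6 CPM per kb). *Panx1* followed in NSPs at 8.02 CPM per kb and *Gjc1* at 1 week at 3.30 CPM per kb. The plot of levels by library shows all 7 genes on their own scales.

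**Figure D1:**
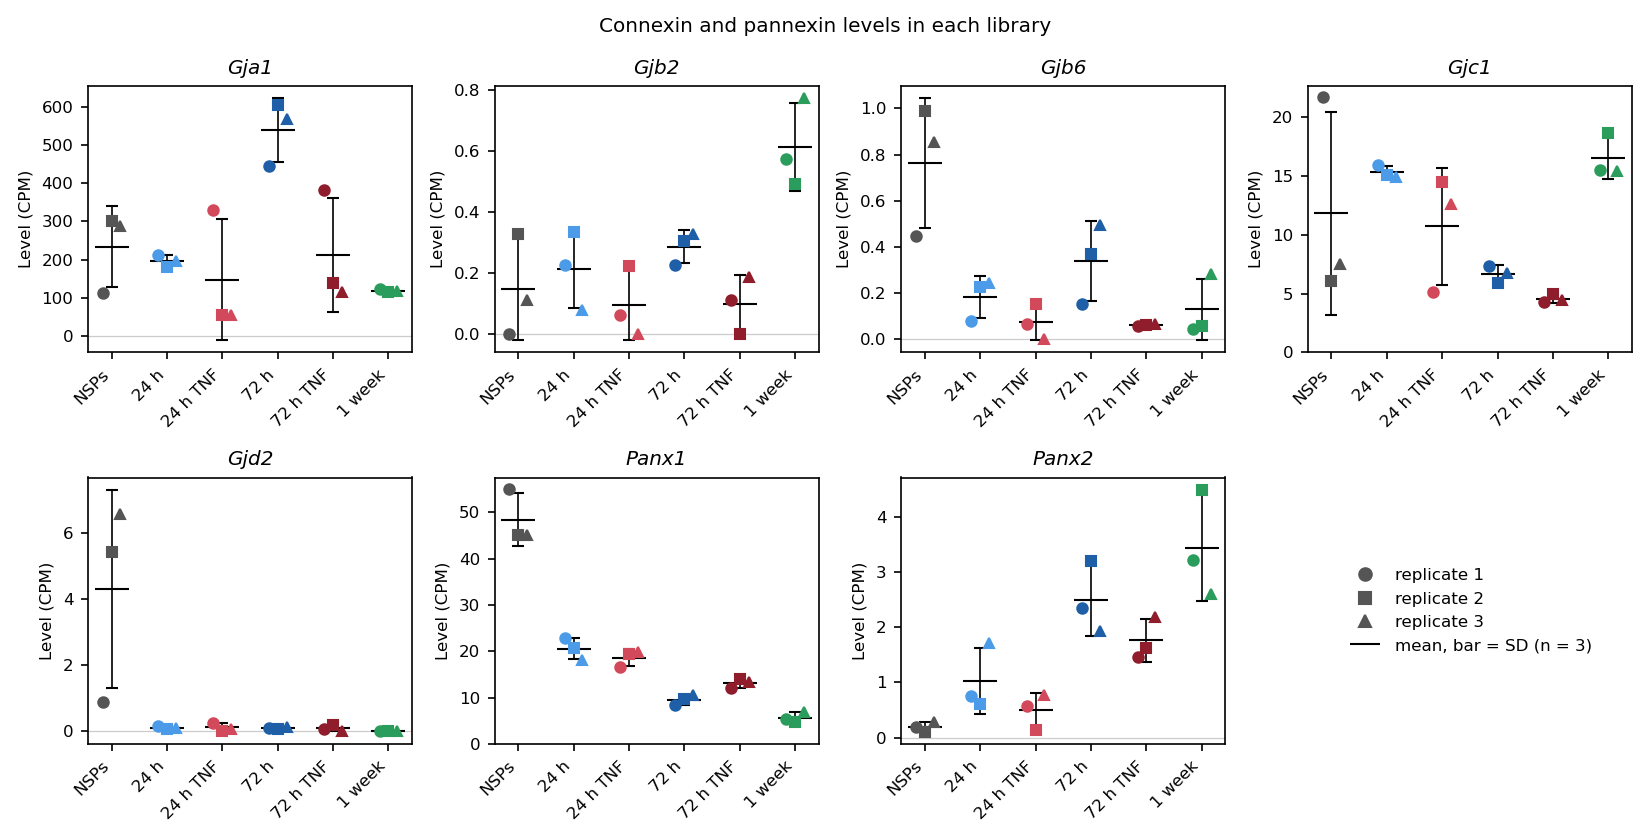
Level in CPM (vertical axis) of each of the 7 genes in the 18 libraries, by condition; symbols are replicates, horizontal ticks the mean and bars the SD of 3 libraries. *Panx1* was highest in NSPs and *Panx2* at 1 week, and *Gja1* of replicate 1 (circles) sat at 330 and 383 CPM with TNF, above the other TNF libraries at 54.7 to 138 CPM.

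In cells differentiated without TNF, *Panx1* and *Gjd2* were lower and *Panx2* was higher than in NSPs at every time, and these 3 of the 5 tested members passed the test in all 3 comparisons. The share of all 20067 tested genes called in these comparisons was 52.7%, 55.3% and 58.6%, so 3 of 5 is close to the background, and *Gjd2* and *Panx2* among the 3 were admitted by the filter on the side where they were high. The 3 comparisons share the NSP libraries. The calls of *Panx1* stood without replicate 1 of every condition (edgeR adjusted p of at most 0.0152). Those of *Gjd2* and *Panx2* stood too, but the same filter had admitted both genes, so for them this is no further support. *Gja1* and *Gjc1* did not pass the test against NSPs at any of these times with all 18 libraries and the usual filter. With no filter on low counts *Gja1* was called at 72 h and 1 week (edgeR adjusted p = 3.02e-13 and 1.2e-09) and *Gjc1* at 72 h (edgeR adjusted p = 0.00113). The SE fell to 0.15 for *Gja1* and 0.23 for *Gjc1*, from 0.54 and 0.38, while the fold changes hardly moved. These p-values therefore understate the spread of the NSP replicates.

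*Panx1*, the channel through which cells release ATP, was at 55.0, 45.1 and 45.1 CPM in the 3 NSP libraries and at 22.8, 20.7 and 18.2 CPM at 24 h. It was at 8.40, 9.63 and 10.5 CPM at 72 h and at 5.30, 4.77 and 6.97 CPM at 1 week. No 2 of these 4 groups overlapped. The level was 2.35-fold lower than in NSPs at 24 h (log2 fold change -1.23 ± 0.15 SE, edgeR adjusted p = 3.16e-06), 5.07-fold lower at 72 h (-2.34 ± 0.16, edgeR adjusted p = 7.88e-10) and 8.56-fold lower at 1 week (-3.10 ± 0.17, edgeR adjusted p = 3.33e-11). *Panx1* also fell from 24 h to 72 h (log2 fold change -1.11 ± 0.16, edgeR adjusted p = 5.06e-05). From 72 h to 1 week the log2 fold change was -0.76 ± 0.17 (edgeR adjusted p = 0.00829), a call lost without replicate 1 (adjusted p = 0.0522) or replicate 2 (adjusted p = 0.0575) of 1 week, and without replicate 2 or 3 of every condition (adjusted p = 0.314 and 0.104). Of 6 markers of progenitors and the cell cycle, 5 fell from NSPs to 24 h, 4 fell and 1 rose from 24 h to 72 h, and 0 were called from 72 h to 1 week, when *Panx1* was called again, and the proliferation marker *Mki67* was at 457 to 493 CPM in NSPs, 37.6 to 42.9 CPM at 24 h and 1.35 to 1.44 CPM at 72 h. The summed level of these 6 genes was 4420 to 6560 CPM in NSPs 985 to 1480 CPM at 72 h and 993 to 1430 CPM at 1 week, and their part in the fall of *Panx1* was not tested. In bulk RNA, fewer cells of a type and less RNA per cell cannot be told apart.

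*Panx2* moved the other way from a low base. It was at 0.110 to 0.284 CPM in NSPs (2 to 5 counts a library), at 0.615 to 1.71 CPM at 24 h, at 1.93 to 3.19 CPM at 72 h and at 2.61 to 4.49 CPM at 1 week. Each differentiated group lay above the NSP libraries, while 72 h and 1 week overlapped. Against NSPs the level was 4.98-fold higher at 24 h (log2 fold change 2.31 ± 0.57), 12.4-fold higher at 72 h (3.63 ± 0.51) and 17.2-fold higher at 1 week (4.10 ± 0.49). No p is given for these folds, since the gene was tested only through libraries outside NSPs. The rise from 24 h to 72 h (1.31 ± 0.41, edgeR adjusted p = 0.0242) was lost without 24 h replicate 1 (adjusted p = 0.101), 24 h replicate 2 (adjusted p = 0.117) or 72 h replicate 2 (adjusted p = 0.116), and without replicate 1 (1.22, adjusted p = 0.0769) or replicate 2 (0.81, adjusted p = 0.289) of every condition. The 4 tested ependymal markers rose from NSPs at each of these times, where 52.7%, 55.3% and 58.6% of all tested genes were called. Their summed level was 21.2 to 35.0 CPM in NSPs, 89.4 to 102 CPM at 24 h, 250 to 341 CPM at 72 h and 209 to 261 CPM at 1 week, with 1 of the 5 listed at 0 in each of these groups. In NSPs 3 of the 5 were under 1 CPM in every library, against 1 in each later group. The filter may therefore have set part of this direction. The part of these markers in the rise of *Panx2* was not tested. Over the 18 libraries the log2 levels of *Panx1* and *Panx2* had a Pearson r of -0.897, given as a description since the libraries share conditions.

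*Gjd2*, the neuronal connexin, was measured almost only in NSPs. The NSP libraries held it at 0.889, 5.44 and 6.60 CPM, the lowest being replicate 1, and none of the 15 other libraries exceeded 0.252 CPM. The summed counts were 229 for NSPs, 4 each for 24 h and 72 h, and 0 for 1 week. The ratio of summed levels was 48.2-fold lower at 24 h (exact 95% counting interval 18.6 to 178) and 53.0-fold lower at 72 h (20.4 to 196). At 1 week it was at least 25.4-fold lower, with a floor of 3 counts per library; intervals and floor cover counting error only. No p is given for these folds, since the gene was tested only through its NSP counts. No fold is given between the differentiated groups, all of which had 0 to 4 counts a library. *Dcx*, a marker of immature neurons, was at 1.46, 7.14 and 7.05 CPM in NSPs, again lowest in replicate 1. It was at 2.85 to 4.32 CPM at 24 h, within the NSP range, at 0.378 to 0.798 CPM at 72 h and at 0 in all 1 week libraries. Of the 7 neuron markers, 6 were tested. From NSPs to 24 h 1 rose and 1 fell (median log2 fold change -0.22), and 4 fell from NSPs to 72 h and 4 from NSPs to 1 week. By 24 h *Gjd2* was already at 4 counts over the group. The summed level of the 7 markers was 1620 to 2090 CPM in NSPs, 1620 to 1800 CPM at 24 h and 1860 to 1920 CPM at 1 week, *Map2* making up most of it, and the part of neurons in the fall of *Gjd2* was not tested.

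*Gja1*, the connexin that couples astrocytes, was at 112, 302 and 287 CPM in NSPs and at 213, 181 and 197 CPM at 24 h. It was at 445, 604 and 569 CPM at 72 h and at 123, 115 and 119 CPM at 1 week. The 72 h libraries lay above all others without TNF, and the 1 week libraries lay below those of 24 h. The 72 h level was 2.74-fold that of 24 h (log2 fold change 1.45 ± 0.55, edgeR adjusted p = 0.0602) and 2.31-fold that of NSPs (1.21 ± 0.54, edgeR adjusted p = 0.0674), and neither passed the test with 18 libraries and the usual filter. The first was called with at least 5 counts in total (adjusted p = 0.0492), both with no filter (adjusted p = 1.61e-19 and 3.02e-13), and both when the compared groups were fitted by themselves (adjusted p = 2.1e-05 and 0.00832, all edgeR). With no filter the log2 fold changes hardly moved (1.47 and 1.17) while the SE fell to 0.15 for both. Against NSPs this is below the 0.32 of the compared groups by themselves, so that p understates the spread of the NSP libraries. Both differences were called without replicate 1 of every condition (1.64 ± 0.12, edgeR adjusted p = 5.69e-08, and 1.00 ± 0.11, edgeR adjusted p = 2.69e-06). Neither was called without replicate 2 (edgeR adjusted p = 0.244 and 0.115) or replicate 3 (edgeR adjusted p = 0.247 and 0.141) of every condition. DESeq2 called neither (adjusted p = 0.102 and 0.14). With 1 library left out, the difference from 24 h was called without NSP replicate 1, any replicate of 24 h with TNF or replicate 1 of 72 h with TNF (adjusted p = 0.00493 to 0.0468). The difference from NSPs was called without any of these apart from NSP replicate 1 (adjusted p = 0.00744 to 0.0469). From 72 h to 1 week *Gja1* fell by 2.18 on the log2 scale, or 4.53-fold (± 0.56 SE, edgeR adjusted p = 0.0228). This call was lost, at adjusted p = 0.06 to 0.0872, without 72 h replicate 2 or 3 or without any 1 of the 1 week libraries, and stood without replicate 1 of every condition (-2.31 ± 0.12, edgeR adjusted p = 1.3e-08) but not without replicate 2 or 3 of every condition (edgeR adjusted p = 0.24 and 0.237). Against NSPs the log2 fold change was -0.25 ± 0.54 at 24 h and -0.97 ± 0.54 at 1 week (edgeR adjusted p = 0.719 and 0.132), and -0.64 ± 0.11 and -1.31 ± 0.12 without replicate 1 of every condition (edgeR adjusted p = 0.000271 and 1.26e-07). Neither was called without replicate 2 or 3 of every condition. The 1 week value was also called without replicate 1 of 24 h with TNF (adjusted p = 0.025) and when these groups were fitted by themselves (adjusted p = 0.029). Astrocyte markers moved over the same step as the fall from 72 h: 6 of 9 fell from 72 h to 1 week and none rose, their summed level going from 5770 to 7910 CPM down to 3390 to 3510 CPM, with none of the 9 at 0. Their part in the fall of *Gja1* was not tested.

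*Gjc1* was at 21.7, 6.10 and 7.51 CPM in NSPs, with replicate 1 apart from the others. It was at 15.9, 15.1 and 14.9 CPM at 24 h, at 7.34, 5.89 and 6.77 CPM at 72 h and at 15.5, 18.6 and 15.4 CPM at 1 week. Its order over the differentiated times was the opposite of that of *Gja1*: lowest at 72 h, when *Gja1* was highest, and highest at 24 h and 1 week (Pearson r of log2 levels -0.561 over 18 libraries, a description). It fell 2.30-fold from 24 h to 72 h (log2 fold change -1.20 ± 0.38, edgeR adjusted p = 0.0249) and rose 2.48-fold from 72 h to 1 week (1.31 ± 0.37, edgeR adjusted p = 0.0408). The fall was lost without any 1 of the 24 h libraries or without 72 h replicate 2 or 3, at adjusted p = 0.0514 to 0.0918. The rise was lost without any 1 of the 72 h or 1 week libraries, without 24 h replicate 1 or 3 or without replicate 3 of 72 h with TNF, at adjusted p = 0.0515 to 0.165. Both stood without replicate 1 of every condition (-1.23 ± 0.18, edgeR adjusted p = 7.2e-05, and 1.44 ± 0.18, edgeR adjusted p = 5.35e-05). Both were lost without replicate 2 (edgeR adjusted p = 0.134 and 0.361) or replicate 3 (edgeR adjusted p = 0.181 and 0.337) of every condition. Against NSPs its log2 fold change was 0.38 ± 0.36 at 24 h, -0.82 ± 0.38 at 72 h and 0.49 ± 0.36 at 1 week (edgeR adjusted p = 0.388, 0.0732 and 0.251). Without NSP replicate 1 it was called higher at 24 h (1.16, edgeR adjusted p = 0.00333) and at 1 week (1.27, edgeR adjusted p = 0.0013), as it was without replicate 1 of every condition (1.14 ± 0.18, edgeR adjusted p = 7.64e-05, and 1.34 ± 0.17, edgeR adjusted p = 8.18e-06). At 72 h it was called lower without NSP replicate 2 (-1.13, edgeR adjusted p = 0.0145), NSP replicate 3 (-1.06, edgeR adjusted p = 0.032) or replicate 1 of 24 h with TNF (-0.80, edgeR adjusted p = 0.038), and it was -0.10 without replicate 1 of every condition (edgeR adjusted p = 0.689).

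In the 72 h against 24 h comparison 3 of 5 tested members were called (*Gjc1* and *Panx1* lower, *Panx2* higher), where 24.8% of all tested genes were. In the 1 week against 72 h comparison 3 of 5 were called (*Gja1* and *Panx1* lower, *Gjc1* higher), where 6.63% of all tested genes were. Leaving out single libraries gave between 1 and 4 called members in the first, with 1 without 24 h replicate 1 or 2 or 72 h replicate 2. It gave between 0 and 3 in the second, with 0 without 1 week replicate 1 or 2, and with 1 without 72 h replicate 2 or 3 or 1 week replicate 3.

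**Figure D2:**
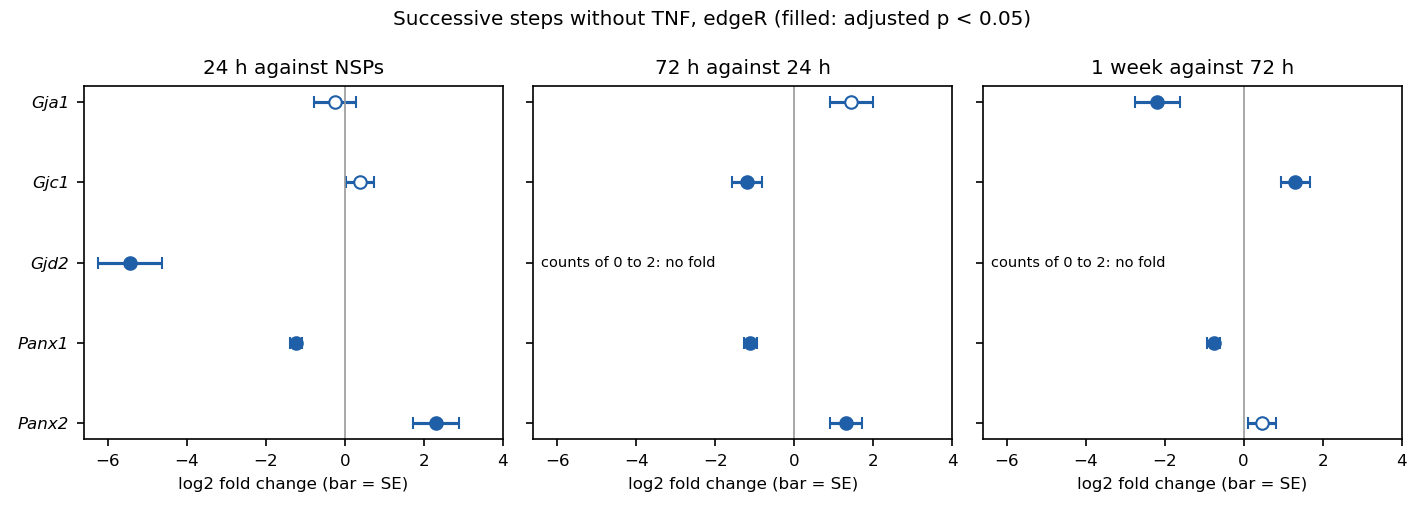
log2 fold change (horizontal axis, bars are SE) of the 5 tested members between successive times without TNF, with filled points for an adjusted p under 0.05. *Panx1* lay below 0 in each step, at -1.23, -1.11 and -0.76, while *Gja1* and *Gjc1* lay on opposite sides of 0 in each step.

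The remaining astrocyte connexins were barely detected. *Gjb6* had 7 to 18 counts a library in NSPs (0.444 to 0.988 CPM) and 0 to 9 in the others (at most 0.495 CPM). *Gjb2* had 9 to 13 counts a library at 1 week (0.493 to 0.775 CPM) and 0 to 6 elsewhere (at most 0.335 CPM). When genes needed only 5 counts over all libraries to be tested, which let both in, *Gjb6* was lower than in NSPs at 24 h (log2 fold change -2.02 ± 0.61, edgeR adjusted p = 0.012) and 1 week (-2.69 ± 0.64, edgeR adjusted p = 0.00142). At 72 h its log2 fold change was -1.11 ± 0.54 (edgeR adjusted p = 0.109), and with the usual filter it was called without NSP replicate 1 (-1.38 ± 0.53, edgeR adjusted p = 0.0384), a fit that it entered through NSP replicates 2 and 3 and that is therefore no independent support. *Gjb2* was higher at 1 week than in NSPs with that filter (1.94 ± 0.70, edgeR adjusted p = 0.0296) but not by DESeq2 (1.98 ± 0.90, adjusted p = 0.0598). With TNF at 72 h *Gjb6* had 1 count in each library, against 2 to 9 without (edgeR adjusted p = 0.0866 with that filter). With the usual filter it was tested and called in this comparison without NSP replicate 1 (adjusted p = 0.0494), 72 h replicate 1 (adjusted p = 0.0325) or 1 week replicate 3 (adjusted p = 0.0495), and without replicate 1 of every condition (adjusted p = 0.0428). In most of the fits that left out libraries and tested it, it was not called (edgeR adjusted p = 0.0541 to 0.271). Against NSPs *Gjb6* was called lower at 24 h with TNF (0 to 2 counts a library) and at 72 h with TNF, by edgeR with that filter (adjusted p = 0.000614 and 0.000314), by DESeq2 (adjusted p = 0.003 and 0.00159) and, where it again entered through NSP replicates 2 and 3, by edgeR without replicate 1 of every condition (adjusted p = 0.00109 and 0.00062). *Gjb2*, at 0 to 3 counts a library with TNF, was called in neither (edgeR adjusted p = 0.571 and 0.645), and between the TNF times neither gene was called (edgeR adjusted p = 0.974 for *Gjb2* and 0.992 for *Gjb6*). The 2 neighbouring genes thus had their highest levels at opposite ends of the time course, at a depth that gives few counts for either.

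With TNF the replicates of *Gja1* were far apart. It was at 330, 54.7 and 56.2 CPM at 24 h with TNF, against 213, 181 and 197 CPM without. At 72 h it was at 383, 138 and 116 CPM with TNF, against 445, 604 and 569 CPM without. In both cases replicates 2 and 3 were below every untreated library of that time, while replicate 1 was above all of them at 24 h and below all of them at 72 h. With all 18 libraries the log2 fold change was -0.42 ± 0.54 at 24 h (edgeR adjusted p = 0.817) and -1.35 ± 0.55 at 72 h (edgeR adjusted p = 0.132), neither of them called with the usual filter. With no filter on low counts the 72 h value was called (-1.33 ± 0.15, edgeR adjusted p = 8.95e-16). Its SE was far below the 0.55 of the usual filter at nearly the same fold change, so this p understates the spread of the TNF replicates. Without replicate 1 of that TNF group the log2 fold change was -1.85 at 24 h (edgeR adjusted p = 0.0247) and -2.08 at 72 h (edgeR adjusted p = 0.0378). At 72 h it was also called without replicate 1 of 24 h with TNF (-1.34, edgeR adjusted p = 0.02), and without replicate 1 of every condition it was -1.78 ± 0.12 at 24 h (edgeR adjusted p = 4.12e-07) and -2.19 ± 0.12 at 72 h (edgeR adjusted p = 1.59e-08). In that fit 5.01% and 20.9% of all tested genes were called. The same replicate 1 libraries were high in *Gfap*, at 1870 against 463 and 596 CPM at 24 h with TNF and at 1020 against 217 and 229 CPM at 72 h with TNF. They were also high in *Aqp4*, the astrocyte water channel, at 1060 against 478 and 459 CPM and at 922 against 556 and 458 CPM. NSP replicate 1 was low in both, with *Gfap* at 11.6 against 37.3 and 32.4 CPM and *Aqp4* at 55.6 against 208 and 213 CPM. The 9 astrocyte markers did not all follow: replicate 1 was the highest library for 7 and the lowest for 2 at 24 h with TNF, the highest for 8 and the lowest for 1 at 72 h with TNF, and the lowest for 6 and the highest for 3 in NSPs. Their summed level was 6140 CPM in replicate 1 against 5010 and 5060 CPM at 24 h with TNF, and 5170 CPM against 4940 and 5180 CPM in NSPs. *Slc1a3* was among those lower in replicate 1 with TNF, at 2040 against 2960 and 2860 CPM at 24 h. The 6 progenitor and cell cycle markers also split in these libraries, their summed level being 1130 CPM in replicate 1 against 2940 and 2640 CPM at 24 h with TNF, 516 against 1070 and 1010 CPM at 72 h with TNF, and 6560 against 4420 and 4570 CPM in NSPs. Over the 9 astrocyte markers, the summed level at 72 h was 5770 to 7910 CPM without and 3580 to 4740 CPM with TNF, and 4 of 9 fell, 2 of 9 at 24 h. The part of either marker list in the levels of *Gja1* was not tested.

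None of the 5 tested members was called with TNF at 24 h, where 3.50% of all tested genes were, or at 72 h, where 9.56% were (edgeR). At an unadjusted p under 0.05 there were 0 members at 24 h and 2 at 72 h (*Gja1* and *Panx1*), and DESeq2 called 0 at either time. *Panx1* at 72 h was at 12.1, 14.0 and 13.3 CPM with TNF and at 8.40, 9.63 and 10.5 CPM without, with no overlap (log2 fold change 0.46 ± 0.16, edgeR adjusted p = 0.077). It was called in this comparison only with a minimum of 10 counts in every library, among the filters tried (0.50, edgeR adjusted p = 0.0308). At 24 h *Panx1* was at 16.5 to 19.8 CPM with and 18.2 to 22.8 CPM without TNF (-0.15 ± 0.15, edgeR adjusted p = 0.763). *Gjc1* with TNF was at 5.10, 14.5 and 12.6 CPM at 24 h and at 4.28, 4.99 and 4.44 CPM at 72 h, each time without overlap with the untreated libraries, at log2 fold changes of -0.51 ± 0.37 and -0.54 ± 0.39 (edgeR adjusted p = 0.618 and 0.411). *Panx2* had log2 fold changes of -0.95 ± 0.49 at 24 h and -0.50 ± 0.38 at 72 h (edgeR adjusted p = 0.416 and 0.432). *Gjd2* had 0 to 4 counts a library on both sides. The difference between the TNF effects at 72 h and 24 h was called for 0 members by edgeR (0.458% of all tested genes; 1 member, *Panx1*, at an unadjusted p under 0.05) and for 0 by DESeq2.

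**Figure D3:**
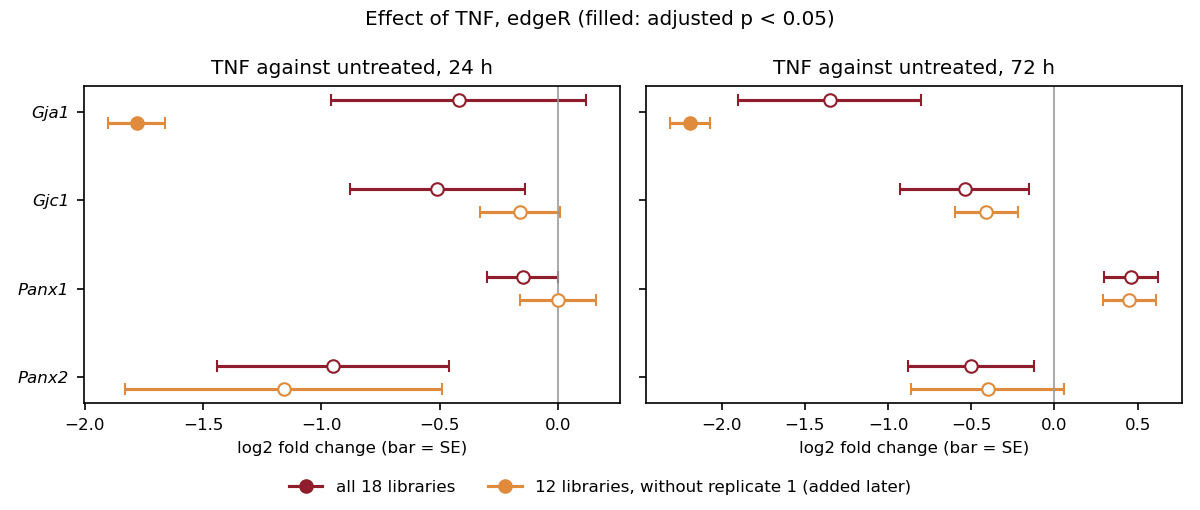
log2 fold change with TNF (horizontal axis, bars are SE) at 24 h and 72 h for 4 members, *Gjd2* being left out for its counts of 0 to 4. Filled points have an adjusted p under 0.05. For *Gja1* the 2 fits differed, at -0.42 and -1.78 at 24 h and at -1.35 and -2.19 at 72 h, and for the other 3 genes neither fit passed the test.

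Against NSPs, the cells differentiated with TNF gave 2 called members at 24 h (*Gjd2* and *Panx1* lower, 54.5% of all tested genes called) and 4 at 72 h (*Gjc1*, *Gjd2* and *Panx1* lower, *Panx2* higher, 61.9% of all tested genes called). *Gjd2* was tested only through its NSP counts and *Panx2* only through libraries outside NSPs, so their calls here are no independent support. *Panx1* had log2 fold changes of -1.38 ± 0.15 at 24 h and -1.88 ± 0.16 at 72 h (edgeR adjusted p = 8e-07 and 1.19e-08). *Gjd2* was 41.1-fold lower at 24 h (counting interval 17.4 to 128) and 56.6-fold lower at 72 h (21.8 to 210). Single libraries moved these values, at 5 and 4 counts in the TNF groups. The fitted log2 fold change at 24 h was -5.23 with all 18 libraries, -6.77 without replicate 1 of that group and -7.23 without replicate 1 of every condition. At 72 h it was -5.66, and -6.87 without replicate 2 of that group. *Panx2* was at 0.567, 0.149 and 0.767 CPM at 24 h (1.36 ± 0.62, not called, and 1.75 ± 0.58, called, without replicate 2 of that group). It was at 1.46 to 2.19 CPM at 72 h (3.13 ± 0.52). No p is given for *Panx2* against NSPs, for the reason above. The fall of *Gjc1* at 72 h (-1.36 ± 0.38, edgeR adjusted p = 0.00509) was lost without NSP replicate 1 (-0.58, edgeR adjusted p = 0.0994) and was -0.51 ± 0.19 without replicate 1 of every condition (edgeR adjusted p = 0.0313). At 24 h *Gjc1* was at -0.13 ± 0.37 (edgeR adjusted p = 0.783), and it turned to 0.98 ± 0.18 and was called higher without replicate 1 of every condition (edgeR adjusted p = 0.000302). For *Gja1* the values rested on the libraries that stood apart, being -0.67 ± 0.54 and -0.14 ± 0.54 with all 18 (edgeR adjusted p = 0.305 and 0.835) and -2.43 ± 0.12 and -1.20 ± 0.12 without replicate 1 of every condition (edgeR adjusted p = 4.37e-10 and 3.7e-07). In fits that left out libraries they ranged from -2.43 to -0.04 at 24 h and from -1.20 to 0.36 at 72 h. At 24 h with TNF the count of called members was 4 without replicate 1 or without replicate 2 of that group.

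Between 24 h and 72 h with TNF, 3 of 5 members were called (13.3% of all tested genes). *Gjc1* fell (-1.23 ± 0.39, edgeR adjusted p = 0.0413), *Panx1* fell (-0.50 ± 0.16, edgeR adjusted p = 0.0397) and *Panx2* rose (1.77 ± 0.45, edgeR adjusted p = 0.0142). Same-numbered libraries deviated together in this comparison, and with the replicate number as a block 1 member was called, *Panx2*, with *Gjc1* being at adjusted p = 0.0536 and *Panx1* at adjusted p = 0.0571 with edgeR. The count was 0 without replicate 2 of 24 h with TNF or without replicate 3 of 72 h with TNF. It was 1 without 24 h replicate 2 or 3, 24 h with TNF replicate 3, 72 h replicate 2, 72 h with TNF replicate 1 or 2, or 1 week replicate 1. *Gja1* was at 0.53 ± 0.54 (edgeR adjusted p = 0.587), and at 1.97 without replicate 1 of 24 h with TNF (edgeR adjusted p = 0.0032) but -0.19 without replicate 1 of 72 h with TNF (edgeR adjusted p = 0.886).

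Of the 16 other connexin and pannexin genes, 6 passed the filter, and 1 was more abundant per kb of exon in NSPs than any member. *Gjc3* (Cx29), a connexin of the oligodendrocyte and Schwann cell lineages, was at 162, 411 and 395 CPM in NSPs and at 148 to 154 CPM at 24 h. It was at 37.4 to 54.7 CPM at 72 h and at 5.10 to 9.44 CPM at 1 week, so that it fell in each successive step (log2 fold changes -1.10 ± 0.31, -1.78 ± 0.31 and -2.65 ± 0.34, edgeR adjusted p = 0.00573, 0.000376 and 9.52e-05). Among the 11 family genes tested with all 18 libraries, it alone was called with TNF, and its TNF libraries lay below the untreated ones at both times. It was at 103, 47.5 and 52.2 CPM at 24 h with TNF (-1.15 ± 0.31, edgeR adjusted p = 0.0431) and at 16.3, 13.2 and 12.1 CPM at 72 h with TNF (-1.65 ± 0.32, edgeR adjusted p = 0.00245). Without replicate 1 of every condition these were -1.59 ± 0.19 and -1.85 ± 0.21 (edgeR adjusted p = 0.000138 and 1.88e-05), and DESeq2 called both (adjusted p = 0.0085 and 9.99e-06). The 24 h call was lost, at edgeR adjusted p = 0.0523 to 0.195, without any 1 of the 24 h libraries, replicate 2 or 3 of 24 h with TNF, 72 h replicate 1 or 3, replicate 2 or 3 of 72 h with TNF or 1 week replicate 1. Both calls were lost without replicate 2 (edgeR adjusted p = 0.439 and 0.0912) or replicate 3 (edgeR adjusted p = 0.398 and 0.0721) of every condition, as was the fall from NSPs to 24 h (edgeR adjusted p = 0.0844 and 0.0851). *Gja6* rose from NSPs to 24 h and fell by 72 h (1.72 ± 0.43 and -1.81 ± 0.44, edgeR adjusted p = 0.00271 and 0.00484), and *Gja5* rose from 24 h to 72 h (1.40 ± 0.33, edgeR adjusted p = 0.00409). Of the 7 oligodendrocyte lineage markers, 5 were tested, and from NSPs to 1 week 4 fell and 1 rose, with summed levels of 144 to 293 CPM and 232 to 280 CPM. In between, 2 fell from NSPs to 24 h, 2 fell and 1 rose from 24 h to 72 h, and 1 fell from 72 h to 1 week, the sum being 167 to 175 CPM at 24 h and 381 to 517 CPM at 72 h. With TNF 1 fell at 24 h (sum 128 to 188 CPM), and 1 fell and 1 rose at 72 h (217 to 328 CPM). Their part in the fall of *Gjc3* was not tested.

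Summed per kilobase of exon over the 23 genes, the family was at 63.2, 136 and 132 CPM per kb in NSPs and at 22.0 to 22.5 CPM per kb at 1 week. *Gjc3* made up 65.7% ± 5.92 (SD, n = 3) of this sum in NSPs and 7.23% ± 2.18 at 1 week. The share of *Gja1* was 20.0% ± 2.46 in NSPs and 29.5% ± 1.35 at 24 h. It was 75.7% ± 2.70 at 72 h and 52.3% ± 1.63 at 1 week. *Gjc1* made up 14.9% ± 1.76 of the sum at 1 week and 1.97% ± 0.491 at 72 h. With TNF the sum was 62.3, 25.9 and 27.2 CPM per kb at 24 h and 47.6, 23.5 and 20.6 CPM per kb at 72 h, replicate 1 being the highest each time. These shares are descriptions and were not tested.

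**Figure D4:**
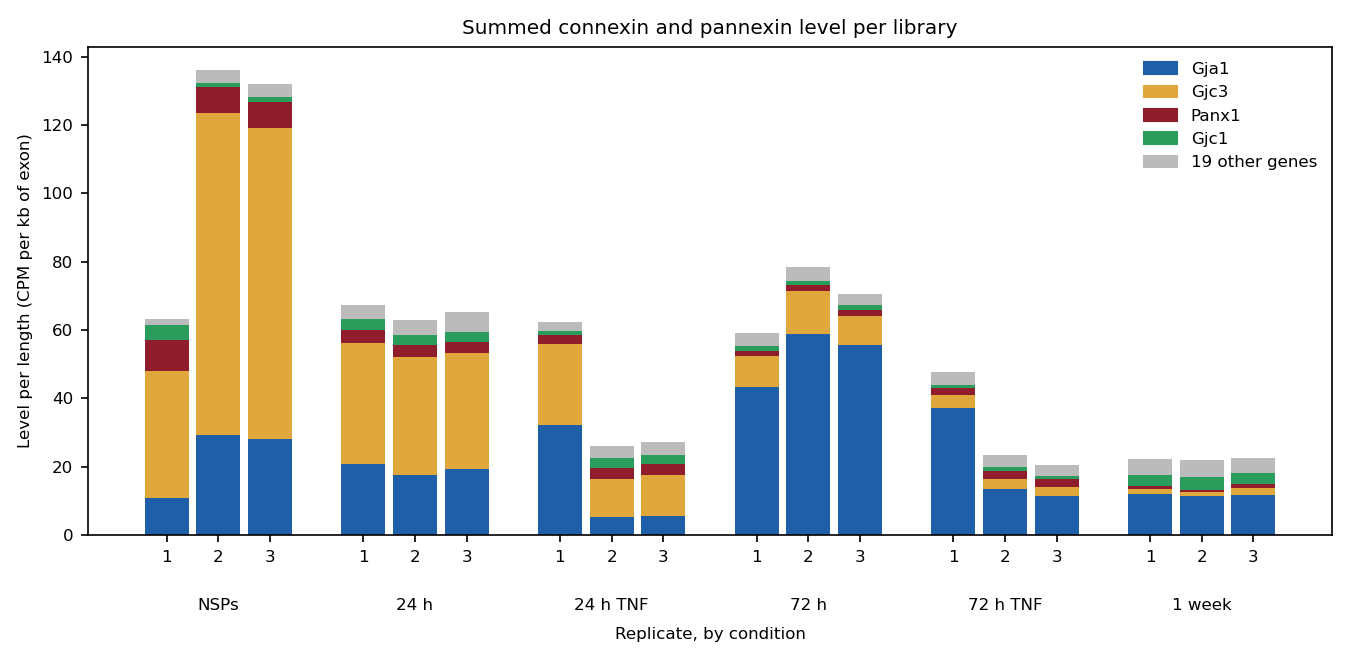
Summed level of the 23 connexin and pannexin genes in CPM per kb of exon (vertical axis, from 0) in each library, in stacked bars by gene with 19 genes drawn together. *Gjc3* made up most of the bars in NSPs and *Gja1* most at 72 h, and with TNF the bars of replicate 1 reached 62.3 and 47.6 CPM per kb.

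Genes that act with these channels were counted in lists, to be read against the share of all tested genes called, which was 52.7%, 24.8% and 6.63% in the successive steps without TNF and 3.50% and 9.56% with TNF at 24 h and 72 h. Of 16 proteins that bind or anchor connexins, all tested, 11 were called from NSPs to 24 h (5 higher, 6 lower), 2 from 24 h to 72 h and 1 from 72 h to 1 week. With TNF 0 were called at 24 h and 1 at 72 h, the secretory-pathway protein *Erp29* (-0.54 ± 0.13, edgeR adjusted p = 0.00934). Among 15 purinergic receptor and ectonucleotidase genes, which sense and degrade released ATP, 11 were tested, and 7, 6 and 4 of them were called in the successive steps without TNF. With TNF 2 of them rose at 24 h, and at 72 h the same 2 rose and 2 fell. *P2rx7*, the ATP-gated channel often studied together with pannexin-1, was at 126 to 144 CPM with and 73.8 to 79.2 CPM without TNF at 24 h (0.80 ± 0.11, edgeR adjusted p = 0.000354). At 72 h it was at 126 to 146 CPM with and 59.7 to 64.6 CPM without (1.10 ± 0.11, edgeR adjusted p = 4.72e-06). *P2ry2*, a receptor for ATP and UTP, rose from a low level at both times (2.62 ± 0.42 and 1.30 ± 0.34, edgeR adjusted p = 0.00109 and 0.0208). The adenosine receptors *Adora1* and *Adora2b* fell at 72 h (-0.64 ± 0.18 and -2.83 ± 0.46, edgeR adjusted p = 0.0324 and 0.000494). The replicates of *P2rx7* did not split as those of *Gja1* did.

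Of 9 genes of the calcium stores that carry astrocyte calcium waves, 6 were called from NSPs to 24 h, 7 from 24 h to 72 h and 0 from 72 h to 1 week. From NSPs to 24 h *Itpr1* and *Stim1* rose (1.43 ± 0.17 and 1.40 ± 0.14, edgeR adjusted p = 1.98e-06 and 2.06e-07) and *Itpr2*, the main astrocyte IP3 receptor, fell (-1.21 ± 0.11, edgeR adjusted p = 6.42e-08). With TNF the calcium pump gene *Atp2a2* fell at both times (-0.68 ± 0.12 and -0.64 ± 0.12, edgeR adjusted p = 0.00244 and 0.0017) and *Plcb1* rose at 72 h (0.58 ± 0.15, edgeR adjusted p = 0.0233). Of 12 other large-pore channel genes, 9 were tested, and 6, 5 and 1 were called in the successive steps without TNF. *Ttyh1* fell with TNF at both times (-0.79 ± 0.22 and -1.19 ± 0.22, edgeR adjusted p = 0.0477 and 0.00136), and *Lrrc8b*, a subunit of volume-regulated anion channels, rose at 72 h (0.83 ± 0.14, edgeR adjusted p = 0.0009). The median log2 fold change with TNF at 24 h and 72 h was -0.02 and -0.12 for the connexin-binding proteins, -0.33 and -0.15 for the purinergic genes, -0.07 and -0.18 for the calcium genes and -0.19 and -0.06 for the large-pore channels, against -0.01 at both times for all tested genes.

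The genes whose log2 levels over the 18 libraries were most like those of a member, among 12291 protein-coding genes with a mean of at least 1 CPM, differed between members. For *Panx1* they were *Itga9*, *Zeb1* and *Pcdh9* (Pearson r = 0.978, 0.978 and 0.975), and *Zeb1*, a transcription factor of progenitors, was at 704 CPM on average in NSPs and 126 CPM at 1 week. For *Panx2* they were *Taok2*, *Vangl2* and *Dlec1* (0.963, 0.947 and 0.946). For *Gja1*, *Mtus1*, *Aldh9a1* and *Hsdl2* came closest (0.893, 0.875 and 0.850), for *Gjc1*, *Shox2*, *Nrn1* and *Hsph1* (0.924, 0.923 and 0.901), and for *Gjd2*, *Ufl1*, *Mfge8* and *Gramd1a* (0.956, 0.945 and 0.944). These values are descriptions over libraries that share conditions.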

How the data were processed

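RNA-seq was analysed in 18 libraries of 6 conditions. Total RNA was depleted of ribosomal RNA and made into stranded libraries. The authors used FastQC for quality, Trim Galore for trimming, STAR for alignment, SAMtools for sorting and featureCounts for counting, and deposited raw counts (build mm10, per the submitters' processing notes). Tool versions and the strand setting are not given in the sources used here. The library named 72 h replicate 3 carries another number in the table and was matched by its index. The labels do not say whether replicates were separate cultures. The study's methods describe its data in general as coming from independent biological experiments, without naming these libraries.

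Names came from GENCODE M21 (54809 of 54838 identifiers). Library totals were 12509693 to 22549627 (median 16794798). All replicate pairs differed beyond sampling error (chi-square divided by its degrees of freedom 3.71 to 55.4). edgeR 4.0.16 (R 4.3.3, limma 3.58.1) was used with TMM scaling, filterByExpr by condition and the quasi-likelihood test, fitting 1 mean for each condition to the 18 libraries; p-values were Benjamini-Hochberg adjusted over 20067 genes at a threshold of 0.05. A standard error is the size of the log2 fold change divided by the root of F. The steps were tested on simulated data. Log2 levels for correlations used a prior count of 2. Levels between genes were compared per kb of merged exon. Alternatives were DESeq2 1.42.0, RLE scaling, other filters, a fold threshold, a replicate block, fits of the compared groups alone and leaving out libraries. Same-numbered libraries correlated in every pair only between 24 h and 72 h with TNF (mean r of deviations 0.271, from 0.255 to 0.291), and the block is given beside that result; the pairing comes from the data, not the labels.

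The 7 members were described in the comparisons with the filter that tested them, *Gjb2* and *Gjb6* with a lower one. From each of 15 lists, at most 4 called genes of at least 1 CPM with the smallest adjusted p were named, plus other connexins of at least 1 CPM; *Mki67*, *Dcx*, *Map2*, *Gfap*, *Aqp4*, *Aldh1l1*, *Slc1a3*, *Nfkbia*, *Pecam1*, *Cldn5*, *Cdh5*, *Kdr*, *Mog* and *Mag* were named as markers beside results after their values were seen. Some genes that this rule would name are not reported here. Members and lists were chosen with earlier results of these data known. Figures used matplotlib 3.10.9 in Python 3.11.15.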

Additional observations from a re-analysis of the deposited data

How the results depend on the processing

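Of 1453 recomputed fold changes of *Gja1*, *Gjc1*, *Panx1* and *Panx2*, and of *Gjd2* against NSPs, 1306 kept their direction and side of the threshold, 80 lost their call, 45 gained one and 22 reversed. Depth limits *Gjb2*, *Gjb6* and *Gjd2* outside NSPs, which had few counts. The falls of *Panx1* and *Gjd2* and the rise of *Panx2* against NSPs kept their direction in every alternative that tested them. For *Gjd2* and *Panx2* this is no independent support where a filter admitted them on the side where they were high. Counts of called members moved by over 1.5 times as follows, and the cause was not tested, although the filter of at least 10 counts left fewer members tested. With at least 10 counts in every library the count was 1 in each untreated time against NSPs (3 with the usual filter), 1 with TNF at 72 h, 1 at 24 h with TNF against NSPs, 2 at 72 h with TNF against NSPs and 1 between the TNF times. With no filter it was 5 at 72 h and 6 at 1 week against NSPs, 1 with TNF at 72 h, 4 at 24 h with TNF against NSPs and 1 for the interaction; with at least 5 counts in total it was 5 at 1 week against NSPs. With the replicate block it was 1 between the TNF times, and with 72 h replicate 3 unpaired in that block it was 1 there and 0 from 72 h to 1 week. Between the TNF times it was 0 when those groups were fitted by themselves. Elsewhere the replicate block, where the libraries share only a number, took the call of *Gjc1* from 72 h to 1 week (edgeR adjusted p = 0.058) and that of *Gjc3* with TNF at 24 h (edgeR adjusted p = 0.0678) and changed no other call of these genes. Smaller moves included 72 h against 24 h, from 3 to 4 with no filter, with at least 5 counts or with the groups fitted by themselves, and to 2 with at least 10 counts or with 72 h replicate 3 unpaired (*Gjc1* at edgeR adjusted p = 0.0846). Leaving out libraries gave ranges of 3 to 6, 3 to 5 and 3 to 6 called members at 24 h, 72 h and 1 week against NSPs, 1 to 4 from 24 h to 72 h, 0 to 3 from 72 h to 1 week, 0 to 1 and 0 to 2 with TNF at 24 h and 72 h, 2 to 5 and 4 to 6 for the TNF times against NSPs and 0 to 4 between them. Log2 fold changes that reversed in such fits ranged for *Gja1* from -0.64 to 0.05 at 24 h against NSPs, from -1.20 to 0.36 at 72 h with TNF against NSPs, from -0.19 to 1.97 between the TNF times and from -1.66 to 0.51 for the interaction. They ranged for *Gjc1* from -0.69 to 0.98 at 24 h with TNF against NSPs and from -0.34 to 0.26 for the interaction (0.03 with at least 10 counts, 0.01 with 72 h replicate 3 unpaired in the block), and for *Panx2* from -0.07 to 0.91 for the interaction.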
